A study of Mus musculus with 8 samples.

Results

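The BATF, AP-1 and IRF activation factors described here are 10 genes of transcription factors that act together in activated T cells: Batf, Batf3, Irf4, Irf8, Zbtb32, Jun, Junb, Jund, Fos and Fosl2. They were chosen by name, through the gene symbols in the authors' table, out of 45777 genes in the count table, and all 10 were among the 16750 genes that passed the filter on low counts. RNA-seq counts came from 8 libraries of primary CD8+ T cells of C57BL/6 mice, taken from lymph node and spleen. All groups received CD3 and CD28 antibodies, and for 48 hours EnPGC-1, SGC-CBP30, Ctrl PIP or the vehicle DMSO, with 2 libraries in each of the 4 groups. SGC-CBP30 is known to block the bromodomains of CBP and p300, a pair of histone acetyltransferases. Ctrl PIP is by its name the control compound. No doses are given in the labels, and matched dosing was therefore not assessed. Nor do the labels tell whether the 2 replicates are different animals, cultures or library preparations. The p-values thus rest on the spread between libraries, and that spread may be technical. The comparisons ask what each compound did relative to its vehicle, and what EnPGC-1 did relative to its control compound and to the bromodomain inhibitor.

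AP-1 is a family of dimers of leucine zipper proteins, made mostly of a JUN protein with a FOS or BATF protein, and it is induced or activated when the T cell receptor and CD28 are engaged. BATF proteins lack the activation domain of FOS, and their dimers with JUN proteins recruit IRF4 or IRF8 to composite sites on DNA, where an AP-1 motif and an IRF motif lie side by side. In CD8+ T cells these complexes are known for driving expansion, metabolic change and effector genes after antigen, and IRF4 is known to follow the strength of the receptor signal.

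Levels per library are CPM, read counts scaled to a common library size after TMM normalization, and a group's value is its mean ± SD over 2 libraries. Fold changes are log2 values from edgeR's quasi-likelihood test over all 8 libraries, adjusted by the Benjamini-Hochberg method over all genes tested. The libraries held between 38890043 and 55491261 counts. Replicates of EnPGC-1 and of DMSO stood apart from each other. Across genes, their log2 CPM correlated at 0.929 in each of these groups, against 0.982 with SGC-CBP30 and 0.98 with Ctrl PIP. The libraries also followed different trends on transcript length. The Spearman rho between each gene's deviation from its mean over the libraries and its transcript length was 0.488 in replicate 1 and -0.525 in replicate 2 of EnPGC-1, 0.536 and 0.479 with SGC-CBP30, -0.525 and -0.201 with Ctrl PIP, and 0.564 and -0.607 with DMSO. The CD8 T cell markers were abundant in every library, with a summed level of 4031 to 5758 CPM for the 9 genes of that list. Several of these genes are shared with other T cells. Cd8a was at 904 to 1241 CPM and Cd8b1 at 663 to 1114 CPM, against 4.54 to 14.1 CPM for Cd4, so the CD8 label held.

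**Figure D1:**
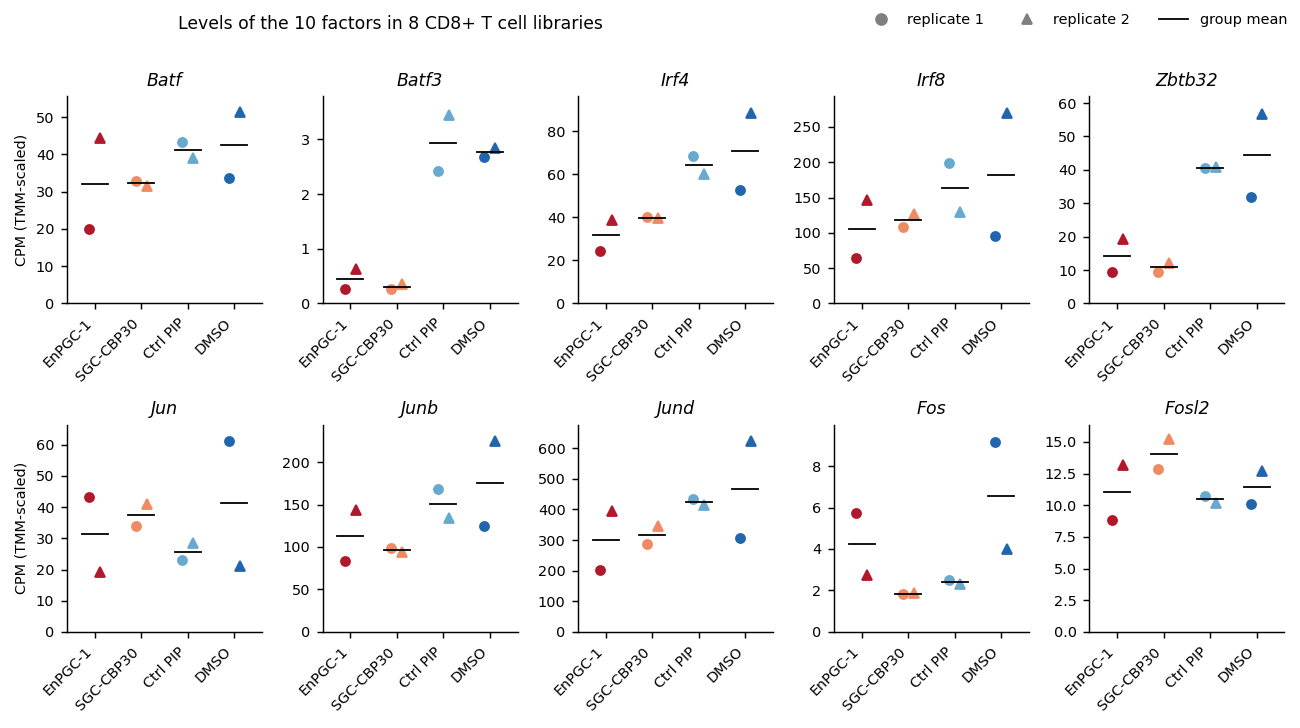
Level of each of the 10 factors in every library (vertical axis, CPM from 0, a separate scale per gene). Circles are replicate 1, triangles replicate 2, and the line is the mean of the 2 libraries of a group. Batf3 lies at or below 0.631 CPM in the EnPGC-1 and SGC-CBP30 libraries and at or above 2.42 CPM in the Ctrl PIP and DMSO libraries.

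Per kilobase of transcript, Jund was the most abundant of the 10 factors, with a mean of 226 CPM per kb over the 8 libraries, and Batf3 the least, with 1.45 CPM per kb. Between them, the order over the 8 libraries was Junb (74.1), Irf8 (41.0), Batf (38.8), Zbtb32 (15.5), Irf4 (10.8), Jun (10.6), Fosl2 (1.80) and Fos (1.79), all in CPM per kb. Jund lay between 121 and 374 CPM per kb and Junb between 45.9 and 125, so their ranges met at the edges. The ranges of Irf8 (18.5 to 77.6) and Batf (20.8 to 53.8) overlapped, as did those of Irf4 (5.16 to 18.6) and Jun (6.04 to 19.2). The ranges of Fos (0.864 to 4.34) and Fosl2 (1.36 to 2.34) overlapped too. Batf3 differed by a factor of 13.4 between its highest and lowest library, Zbtb32 by 5.99, Fos by 5.02 and Fosl2 by 1.72.

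Of the BATF genes, Batf3 was lower with EnPGC-1 and with SGC-CBP30 and the intervals of Batf held 0. Batf3 (Entrez gene 381319, GRCm38.p6 chromosome 1, 191098414 to 191108943) encodes a BATF protein known for the development of cross-presenting dendritic cells and for the survival of CD8+ T cells that form memory. It had 0.267 and 0.631 CPM with EnPGC-1, 0.258 and 0.354 CPM with SGC-CBP30, 2.42 and 3.45 CPM with Ctrl PIP, and 2.69 and 2.85 CPM with DMSO. The counts behind these levels were 11 and 34, 14 and 19, 121 and 179, and 113 and 144, in the same order of groups. Both libraries of EnPGC-1 and both of SGC-CBP30 lay below all 4 libraries of Ctrl PIP and DMSO. The log2 fold change was -2.61 for EnPGC-1 against DMSO (SE 0.54, 95% interval -3.88 to -1.33) and -2.69 for EnPGC-1 against Ctrl PIP (SE 0.54, 95% interval -3.97 to -1.41). For SGC-CBP30 against DMSO it was -3.17 (SE 0.55, 95% interval -4.48 to -1.85).

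None of these differences of Batf3 passed edgeR's adjusted threshold of 0.05. The edgeR adjusted p was 0.998, 0.812 and 0.943 for the 3 comparisons as given above, with unadjusted p of 0.00209, 0.00177 and 8.2e-04. DESeq2's Wald test, an alternative tool, called Batf3 lower in each of the 3 (adjusted p = 0.0174, 0.00665 and 1.1e-04). Over all alternatives of a comparison, the adjusted p of Batf3 ranged from 0.0174 to 1, from 0.00665 to 1 and from 1.1e-04 to 1. Ctrl PIP and DMSO did not differ beyond their spread in Batf3 (0.09, SE 0.50, 95% interval -1.10 to 1.27), and the interval for EnPGC-1 against SGC-CBP30 was -0.70 to 1.82 around 0.56.

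Batf (Entrez gene 53314, chromosome 12, 85686720 to 85709087) encodes the BATF protein needed for effector expansion of CD8+ T cells. It had 19.9 and 44.4 CPM with EnPGC-1, 32.9 and 31.6 CPM with SGC-CBP30, 43.4 and 39.1 CPM with Ctrl PIP, and 33.6 and 51.4 CPM with DMSO. The EnPGC-1 and DMSO libraries overlapped, and both SGC-CBP30 libraries lay below both DMSO libraries by a small margin. The log2 fold change was -0.40 for EnPGC-1 against DMSO (SE 0.39) and -0.40 for SGC-CBP30 against DMSO (SE 0.39), each with an interval that held 0 (-1.35 to 0.54, and -1.34 to 0.55). Batf and Batf3 have transcripts of 955 and 1110 nt, so a trend on transcript length bears on them alike. With offsets for transcript length and GC content, Batf was at -0.20 in EnPGC-1 against DMSO and at -0.03 in SGC-CBP30 against DMSO.

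Of the IRF partners, Irf4 was lower with EnPGC-1 and SGC-CBP30 and Irf8 was spread widely. Irf4 (Entrez gene 16364, chromosome 13, 30749233 to 30766981) had 24.6 and 38.7 CPM with EnPGC-1, 40.1 and 39.6 CPM with SGC-CBP30, 68.4 and 60.1 CPM with Ctrl PIP, and 52.8 and 88.4 CPM with DMSO. All 4 libraries of EnPGC-1 and SGC-CBP30 lay below all 4 of Ctrl PIP and DMSO, and both EnPGC-1 libraries also lay below both of SGC-CBP30. The log2 fold change was -1.16 for EnPGC-1 against DMSO (SE 0.32, 95% interval -1.93 to -0.39), -1.02 for EnPGC-1 against Ctrl PIP (SE 0.32, 95% interval -1.79 to -0.25) and -0.83 for SGC-CBP30 against DMSO (SE 0.32, 95% interval -1.59 to -0.06). The edgeR adjusted p was 0.998, 0.812 and 0.943, and DESeq2's was 0.493, 0.428 and 0.637, so neither tool called Irf4. Without replicate 2 of DMSO the edgeR value was -0.74 in EnPGC-1 against DMSO and -0.41 in SGC-CBP30 against DMSO, and the second was no longer under an unadjusted p of 0.05. Without replicate 1 of EnPGC-1 it was -0.86 against DMSO and -0.73 against Ctrl PIP, and neither was under that p. SGC-CBP30 against DMSO was also above that p without any 1 library of Ctrl PIP or SGC-CBP30. It was above it too in a fit of its own 4 libraries alone. EnPGC-1 against Ctrl PIP was above that p without replicate 1 of Ctrl PIP. Ctrl PIP against DMSO gave -0.14 (SE 0.32).

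Irf8 (Entrez gene 15900, chromosome 8, 120736358 to 120756694) is known as a factor of myeloid and B cells that is also induced in effector CD8+ T cells. It had 64.3 and 146 CPM with EnPGC-1, 108 and 127 CPM with SGC-CBP30, 198 and 130 CPM with Ctrl PIP, and 94.9 and 269 CPM with DMSO. Of the 8 libraries, replicate 1 of EnPGC-1 was the lowest and the second DMSO library the highest, and the groups overlapped in the comparisons with DMSO. The log2 fold change was -0.79 for EnPGC-1 against DMSO, with an interval of -2.17 to 0.59. Without replicate 2 of DMSO it was 0.15, so its direction rested on that library.

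Zbtb32 (Entrez gene 58206, chromosome 7, 30589680 to 30602819) encodes a zinc finger repressor of the BTB family that is induced on lymphocyte activation and known to restrain T cell responses. It had 9.47 and 19.2 CPM with EnPGC-1, 9.55 and 12.02 CPM with SGC-CBP30, 40.6 and 40.8 CPM with Ctrl PIP, and 32.0 and 56.7 CPM with DMSO. As for Batf3 and Irf4, the 4 libraries of EnPGC-1 and SGC-CBP30 all lay below the 4 of Ctrl PIP and DMSO. The log2 fold change was -1.63 for EnPGC-1 against DMSO (SE 0.41, 95% interval -2.62 to -0.64), -1.51 for EnPGC-1 against Ctrl PIP (SE 0.41, 95% interval -2.49 to -0.52) and -2.04 for SGC-CBP30 against DMSO (SE 0.42, 95% interval -3.04 to -1.04). The edgeR adjusted p was 0.998, 0.812 and 0.943. DESeq2 called the third (adjusted p = 0.00174) and not the first or second (adjusted p = 0.208 and 0.163). A long noncoding RNA gene, Gm32082, overlaps Zbtb32 and had at most 31 counts in a library. Reads that both genes share were not assessed.

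The promoters of Batf3, Irf4 and Zbtb32 are shown because these 3 genes were lower in all 4 libraries of EnPGC-1 and SGC-CBP30 than in the other 4. The share of all genes with this pattern was not counted, so how unusual it is cannot be read here. They are RefSeq sequences on GRCm38.p6, from 250 bases before to 50 bases after the transcript start, read 5′ to 3′ on the gene's strand. Capitals mark matches on either strand to the AP-1 site TGANTCA, the CRE TGACGTCA, the IRF pair (GAAA, 2 bases of any kind, GAAA), the GC box GGGCGG or the E-box CACGTG.
Batf3, chr1:191098164-191098463, plus strand: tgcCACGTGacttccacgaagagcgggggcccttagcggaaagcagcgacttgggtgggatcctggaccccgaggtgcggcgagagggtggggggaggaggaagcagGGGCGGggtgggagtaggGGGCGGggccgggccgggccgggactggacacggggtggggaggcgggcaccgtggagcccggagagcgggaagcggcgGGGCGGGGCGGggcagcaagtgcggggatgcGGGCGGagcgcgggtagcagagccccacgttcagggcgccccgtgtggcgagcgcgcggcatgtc
Irf4, chr13:30748983-30749282, plus strand: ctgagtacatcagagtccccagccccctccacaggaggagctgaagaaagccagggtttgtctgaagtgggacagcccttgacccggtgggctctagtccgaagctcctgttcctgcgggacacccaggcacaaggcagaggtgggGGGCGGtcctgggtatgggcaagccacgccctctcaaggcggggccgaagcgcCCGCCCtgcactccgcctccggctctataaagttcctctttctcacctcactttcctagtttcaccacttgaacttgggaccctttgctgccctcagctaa
Zbtb32, upstream start, chr7:30598860-30599159, minus strand: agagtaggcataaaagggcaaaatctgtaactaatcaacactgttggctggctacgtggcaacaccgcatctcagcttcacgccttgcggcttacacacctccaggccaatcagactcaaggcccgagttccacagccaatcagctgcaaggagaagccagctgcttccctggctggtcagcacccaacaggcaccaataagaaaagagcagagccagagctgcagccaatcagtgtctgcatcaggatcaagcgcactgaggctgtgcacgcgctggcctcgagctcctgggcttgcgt
Zbtb32, downstream start, chr7:30592893-30593192, minus strand: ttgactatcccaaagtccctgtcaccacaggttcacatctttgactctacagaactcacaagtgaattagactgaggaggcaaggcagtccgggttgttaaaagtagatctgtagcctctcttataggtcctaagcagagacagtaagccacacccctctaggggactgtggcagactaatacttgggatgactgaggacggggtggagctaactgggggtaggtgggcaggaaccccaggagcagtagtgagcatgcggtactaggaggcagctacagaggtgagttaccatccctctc

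The Batf3 promoter held 5 GC boxes, 2 of which share a base, and 1 E-box, and it was 75.7% G and C. The Irf4 promoter held 2 GC boxes at 61% G and C, and neither promoter of Zbtb32 held any of the 5 motifs (56% and 52% G and C). Both Zbtb32 windows lie inside the gene's span, whose upstream end is at 30602819, so that end has no window here. Among all 32851 promoters of 300 bases in the table, 35.7% held a GC box, 7.15% an E-box, 7.81% the AP-1 site, 3.44% the IRF pair and 1.79% the CRE. None of the 12 promoters of the 10 factors in the table held the AP-1 site or the CRE within these windows, and 1, that of Fosl2, held the IRF pair. A match is a description of letters, and a window without one says nothing of sites elsewhere.

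The JUN genes differed between the replicates of EnPGC-1 and of DMSO, and no difference between groups passed the test. Jun (Entrez gene 16476, chromosome 4, 95049036 to 95052222), the founding JUN protein, had 43.3 and 19.3 CPM with EnPGC-1, 34.1 and 40.9 CPM with SGC-CBP30, 22.9 and 28.4 CPM with Ctrl PIP, and 61.2 and 21.3 CPM with DMSO. The first libraries of EnPGC-1 and DMSO were high and the second low, and the log2 fold change between these groups was -0.40 (SE 0.56, 95% interval -1.73 to 0.94). Leaving out replicate 1 of DMSO gave 0.57, and leaving out replicate 2 of EnPGC-1 gave 0.07.

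Junb (Entrez gene 16477, chromosome 8, 84976909 to 84978748), a BATF partner in T cells, had 82.9 and 143 CPM with EnPGC-1, 98.8 and 94.4 CPM with SGC-CBP30, 168 and 134 CPM with Ctrl PIP, and 125 and 225 CPM with DMSO. Both SGC-CBP30 libraries lay below both DMSO libraries (log2 fold change -0.86, SE 0.37, 95% interval -1.75 to 0.03, and -0.37 without replicate 2 of DMSO), while EnPGC-1 and DMSO overlapped (-0.63, SE 0.37). Jund (Entrez gene 16478, chromosome 8, 70697739 to 70700616), a JUN protein expressed in resting cells too, had 202 and 396 CPM with EnPGC-1, 287 and 345 CPM with SGC-CBP30, 434 and 415 CPM with Ctrl PIP, and 308 and 624 CPM with DMSO. Both EnPGC-1 libraries lay below both Ctrl PIP libraries (-0.51, SE 0.43, 95% interval -1.54 to 0.53), and the comparisons with DMSO overlapped. Jun, Junb and Jund had 0 calls by edgeR and 0 by DESeq2 in the 5 comparisons.

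Of the FOS genes, Fos was lower with SGC-CBP30 and Ctrl PIP than with DMSO at an unadjusted p under 0.05, and Fosl2 was not lower or higher at that p in any comparison. Fos (Entrez gene 14281, chromosome 12, 85473890 to 85477274), an early gene of receptor signalling, had 5.76 and 2.73 CPM with EnPGC-1, 1.82 and 1.87 CPM with SGC-CBP30, 2.52 and 2.29 CPM with Ctrl PIP, and 9.15 and 3.99 CPM with DMSO. Fos did not have the library pattern of Batf3, Irf4 and Zbtb32. Ctrl PIP lay with SGC-CBP30 below DMSO, and both EnPGC-1 libraries lay above both libraries of Ctrl PIP and of SGC-CBP30. The log2 fold change was -1.83 for SGC-CBP30 against DMSO (SE 0.53, 95% interval -3.11 to -0.55), -1.45 for Ctrl PIP against DMSO (SE 0.53, 95% interval -2.71 to -0.18) and -0.63 for EnPGC-1 against DMSO (SE 0.52, 95% interval -1.87 to 0.61). For EnPGC-1 it was 0.82 against Ctrl PIP (SE 0.52) and 1.199 against SGC-CBP30 (SE 0.53, 95% interval -0.06 to 2.46). Without replicate 1 of DMSO, the higher of the DMSO libraries, Fos was at -1.10 in SGC-CBP30 against DMSO. In Ctrl PIP against DMSO it was then at -0.71, and neither was under that unadjusted p. Leaving out replicate 1 or replicate 2 of SGC-CBP30 also put SGC-CBP30 against DMSO above that p. For Ctrl PIP against DMSO, leaving out any 1 library of Ctrl PIP or SGC-CBP30 did so. No comparison of Fos passed the adjusted threshold with edgeR (adjusted p = 0.812 to 1) or DESeq2 (adjusted p = 0.169 to 1).

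Fosl2 (Entrez gene 14284, chromosome 5, 32136472 to 32157840), a FOS relative known to oppose some BATF targets in T helper cells, was the steadiest of the 10. It had 8.86 and 13.2 CPM with EnPGC-1, 12.9 and 15.3 CPM with SGC-CBP30, 10.8 and 10.2 CPM with Ctrl PIP, and 10.1 and 12.7 CPM with DMSO. Both SGC-CBP30 libraries lay above both DMSO libraries, by 0.30 on the log2 scale (SE 0.27, 95% interval -0.35 to 0.95), and with offsets for transcript length and GC content the value was -0.05.

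**Figure D2:**
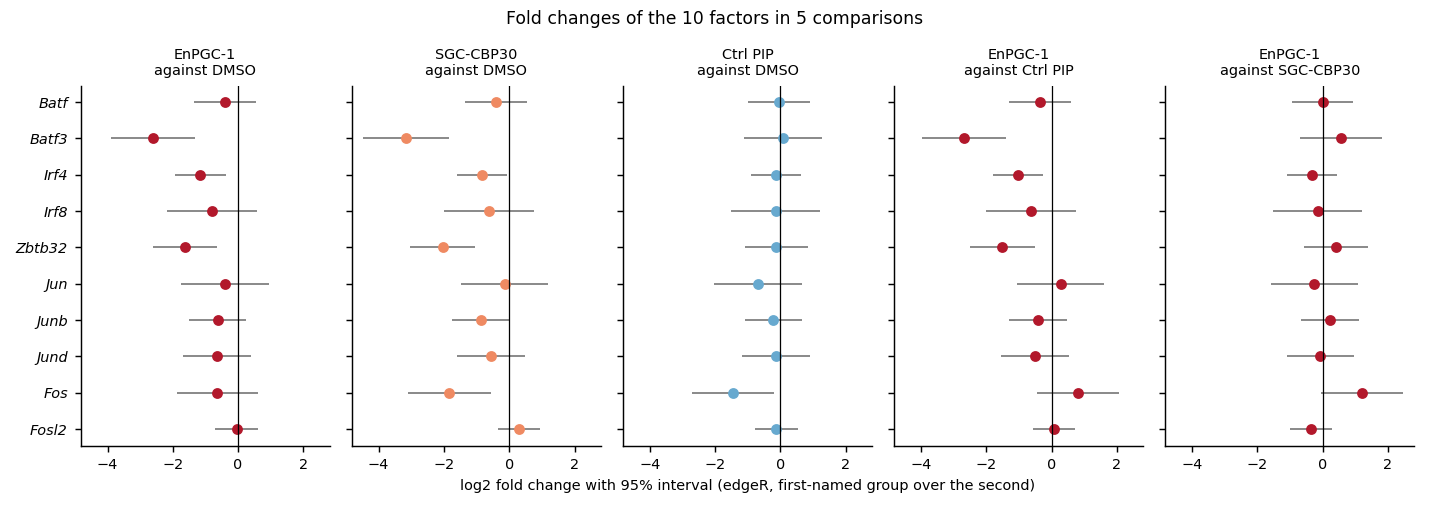
Log2 fold change of each factor (points, first-named group over the second) with its 95% interval from edgeR (grey lines) in 5 comparisons. The intervals of Batf3, Irf4 and Zbtb32 lie below 0 in EnPGC-1 against DMSO, in SGC-CBP30 against DMSO and in EnPGC-1 against Ctrl PIP, and hold 0 in the other 2 panels.

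Across the 10 factors, edgeR called 0 in each of the 5 comparisons, as it did among all genes (0% of 16750). At an unadjusted p under 0.05, 3 of the 10 were lower with EnPGC-1 than with DMSO (Batf3, Irf4 and Zbtb32), where 1.81% of all genes tested were lower at that p. The same 3 were lower with EnPGC-1 than with Ctrl PIP, where the share of all genes was 2.77%. With SGC-CBP30 against DMSO these 3 and Fos were lower (2.82% of all genes), and with Ctrl PIP against DMSO Fos alone was (0.364% of all genes). EnPGC-1 against SGC-CBP30 had 0 of the 10 lower at that p (0.931% of all genes), and 0 higher. The comparisons with DMSO share its libraries, and those of EnPGC-1 share its own, so these counts are not independent of each other.

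DESeq2 called 1 of the 10 lower in EnPGC-1 against DMSO (Batf3), against 0.061% of 22967 genes. It called 1 lower in EnPGC-1 against Ctrl PIP (Batf3), against 0.133% of 18852 genes, and 2 in SGC-CBP30 against DMSO (Batf3 and Zbtb32), against 0.335% of 17038 genes. It called 0 of the 10 in Ctrl PIP against DMSO (0.00428% of all genes lower) and 0 in EnPGC-1 against SGC-CBP30 (0.0099%). Counted by libraries that did not overlap, 3 of the 10 were lower with EnPGC-1 than with DMSO, against 9.24% of all genes, 4 were lower with EnPGC-1 than with Ctrl PIP, against 21.7%, and 6 were lower with SGC-CBP30 than with DMSO, against 14.5%. Fos alone was lower with Ctrl PIP than with DMSO (7.83% of all genes), and Irf4 alone was lower with EnPGC-1 than with SGC-CBP30 (14.7%). In the other direction, without overlap, Fosl2 was higher with SGC-CBP30 than with DMSO (16.2% of all genes), and EnPGC-1 had Fos above Ctrl PIP (20.7%) and above SGC-CBP30 (13.2%). In EnPGC-1 against DMSO and in Ctrl PIP against DMSO 0 of the 10 were higher in this way (9.83% and 8.34% of all genes).

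The median log2 fold change of the 10 factors was -0.64 in EnPGC-1 against DMSO, where that of all genes was 0.001, and -0.73 in SGC-CBP30 against DMSO, where that of all genes was -0.03. It was -0.46 in EnPGC-1 against Ctrl PIP (0.05 for all genes), -0.14 in Ctrl PIP against DMSO (-0.05 for all genes) and -0.04 in EnPGC-1 against SGC-CBP30 (0.02 for all genes). All 10 factors were below 0 in EnPGC-1 against DMSO, as were 49.8% of all genes. In SGC-CBP30 against DMSO 9 were (52.7% of all genes), in Ctrl PIP against DMSO 9 (58.4%), in EnPGC-1 against Ctrl PIP 7 (45.9%) and in EnPGC-1 against SGC-CBP30 6 (47.1%). Of these 10, Batf, Irf8, Jun, Fos and Fosl2 came out above 0 when 1 library of DMSO or EnPGC-1 was left out, and Batf3, Irf4, Zbtb32, Junb and Jund did not.

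Ratios of counts within a library depend neither on its depth nor on its scaling. The pairs were chosen after their values were seen, and Batf3 with Batf and Zbtb32 with Junb are pairs of similar transcript length. For every 100 Batf counts there were 1.34 and 1.42 Batf3 counts with EnPGC-1, 0.783 and 1.12 with SGC-CBP30, 5.58 and 8.83 with Ctrl PIP, and 8.003 and 5.54 with DMSO. The replicates of EnPGC-1, whose levels of Batf3 differed by 1.13 on the log2 scale, were close in this ratio, at 1.38 ± 0.06 against 6.77 ± 1.74 with DMSO. That closeness rests on 11 and 34 Batf3 counts. The DMSO replicates differed by only 0.08 in their Batf3 levels and stood further apart in the ratio. With SGC-CBP30 and Ctrl PIP the ratio did not bring the replicates closer either.

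For every 100 Junb counts there were 11.4 and 13.4 Zbtb32 counts with EnPGC-1, 9.67 and 12.7 with SGC-CBP30, 24.1 and 30.5 with Ctrl PIP, and 25.6 and 25.2 with DMSO. Here too the 4 libraries of EnPGC-1 and SGC-CBP30 lay below the others. For every 100 Jun counts there were 13.3 and 14.2 Fos counts with EnPGC-1, 5.35 and 4.56 with SGC-CBP30, 11 and 8.07 with Ctrl PIP, and 15.0 and 18.8 with DMSO, so this ratio put the groups in 4 bands that did not overlap. The counts of Irf4 per 100 Irf8 counts did overlap, at 38.3 and 26.4 with EnPGC-1 and 55.6 and 32.9 with DMSO. An exact permutation test of 2 libraries against 2 cannot go below p = 0.333 (two-sided), so these ratios carry no test.

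**Figure D3:**
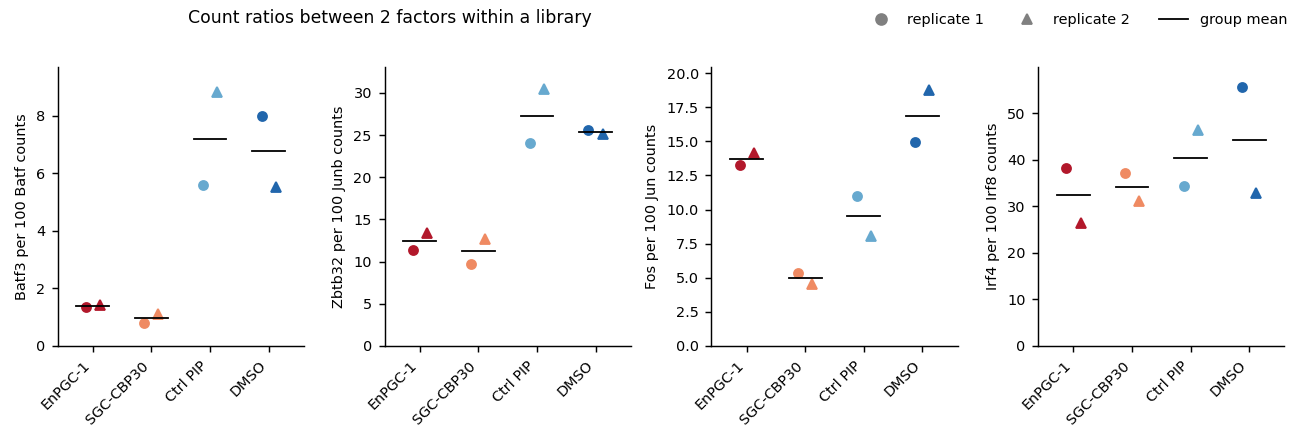
Counts of one factor per 100 counts of another in the same library (vertical axes, from 0), by group. Circles are replicate 1, triangles replicate 2, and lines are group means. Batf3 per 100 Batf counts is at most 1.42 with EnPGC-1 or SGC-CBP30 and at least 5.54 with Ctrl PIP or DMSO.

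Replicates of EnPGC-1 and of DMSO differed widely in most of the 10 factors. In EnPGC-1, replicate 2 was above replicate 1 for 8 of the 10 factors, by 0.57 (Fosl2) to 1.19 (Irf8) on the log2 scale, and below it for Jun (-1.17) and Fos (-1.06). In DMSO the same 8 were above, by 0.08 (Batf3) to 1.504 (Irf8), and Jun (-1.52) and Fos (-1.19) were below. With SGC-CBP30 the replicates of the 10 differed by at most 0.41 (Batf3), and with Ctrl PIP by at most 0.61 in size (Irf8, -0.61).

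Transcript length moved with part of this. Among all genes with a log2 CPM above 3, those under 1000 nt were higher in replicate 2 by a median of 0.81 in EnPGC-1 and 1.14 in DMSO, and those of 4000 to 8000 nt were lower, by a median of -0.27 and -0.44. Irf4 (4764 nt) and Fosl2 (6537 nt) were above 0 where genes of their length were below, and Fos (2108 nt) and Jun (3189 nt) were below where genes of their length were above. With offsets for transcript length and GC content, Batf3, Irf4 and Zbtb32 had -2.47, -1.22 and -1.49 in EnPGC-1 against DMSO, and -2.88, -1.0 and -1.80 in SGC-CBP30 against DMSO. The ribosomal RNA gene Rn18s-rs5 was at 9044 CPM in replicate 2 of EnPGC-1 and 10073 CPM in replicate 2 of DMSO, against 1119 to 2311 CPM in the other 6 libraries, and its part in the replicate differences was not tested.

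**Figure D4:**
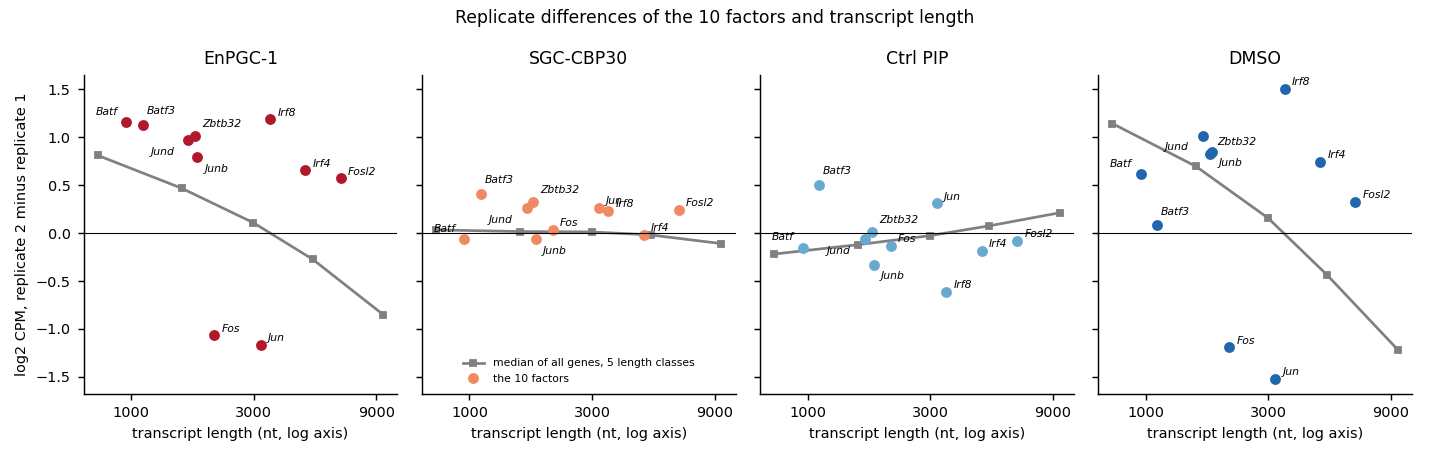
Difference between replicates (vertical axis, log2 CPM of replicate 2 minus replicate 1) of the 10 factors, plotted against transcript length (nt, log axis) in each group. Grey squares are medians of all genes with log2 CPM above 3 in 5 length classes. In EnPGC-1 and DMSO, Jun and Fos lie below the grey line and Irf8, Irf4 and Fosl2 above it.

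Log2 CPM over the 8 libraries gave a description of which factors followed each other, with points that share groups, depth and the length trend. Batf3 and Zbtb32 had the highest Pearson r of the 45 pairs (0.972), followed by Irf8 and Jund (0.965) and Batf and Jund (0.944). Jun was on the opposite side of Irf8 (-0.756) and Batf (-0.718). Among 10220 genes tested with a mean of at least 5 CPM, those most like Batf3 were Efhd2 (0.987), Zbtb32 (0.972) and Coro2a (0.967). Those most like Zbtb32 were BC035044 (0.984), Cd160 (0.980), which encodes a receptor of cytotoxic lymphocytes, and Elovl1 (0.978), an elongase of fatty acids.

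Those most like Irf4 were Wnt10b (0.995), a WNT ligand, Ptpn7 (0.989), a phosphatase of MAP kinases in blood cells, and Tnfsf14 (0.985), the cytokine LIGHT. Wnt10b had 2.94 and 6.11 CPM with EnPGC-1, 5.93 and 6.42 CPM with SGC-CBP30, 15.5 and 11.5 CPM with Ctrl PIP, and 8.63 and 19.6 CPM with DMSO. The genes most like Fos were Stap1 (0.964), an adaptor protein, Zbtb25 (0.962) and Mcoln2 (0.940), a cation channel. The genes most like Jun were Myo5a, Pdzd8 and Rel, an NF-kB subunit (0.974, 0.974 and 0.972), and Junb was followed by 4930417O13Rik (0.998), Ier2 (0.995), another early response gene, and Mrpl44 (0.995). For Batf they were Mospd3, Clta and Hcls1, for Irf8 Acp1, Erg28 and Ghitm, for Jund Gtf2e2, Ppp1ccb and Akt2-ps, and for Fosl2 Gnb4, Pik3c3 and Polg2, at 0.945 to 0.995.

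Other genes of the same routes were read from 4 lists. Of 12 other AP-1, ATF, BACH and small MAF genes, 10 were tested and 5 lay below 0 in EnPGC-1 against DMSO, with a median of -0.02 and 0 at an unadjusted p under 0.05. The smallest p was that of Maff, a small MAF protein, at 1.27 ± 0.434 CPM with EnPGC-1 and 2.16 ± 1.30 CPM with DMSO (-0.77, SE 0.58), followed by Atf3, a stress-induced factor (-0.79, SE 0.82), and Bach1, a repressor that binds with small MAF proteins (0.47, SE 0.73). Of 16 genes of the MAP kinase route and its phosphatases, 9 lay below 0 (median -0.08), with 0 at that p. Dusp4 and Dusp5, phosphatases of MAP kinases, had -0.72 (SE 0.41) and -0.56 (SE 0.38), and the kinase Map2k2 had -0.30 (SE 0.23).

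Of 10 other IRFs and IRF2-binding proteins, 4 lay below 0 in EnPGC-1 against DMSO (median 0.07), 1 of them at an unadjusted p under 0.05. This was Irf5, known in macrophages and B cells, which had 4.54 and 5.20 CPM with EnPGC-1, 5.25 and 4.68 CPM with SGC-CBP30, 7.02 and 5.16 CPM with Ctrl PIP, and 9.80 and 11.9 CPM with DMSO. All 6 libraries with a compound lay below both DMSO libraries. Its log2 fold change was -1.15 with EnPGC-1 (SE 0.28), -1.13 with SGC-CBP30 (SE 0.28) and -0.83 with Ctrl PIP (SE 0.28), each against DMSO, and edgeR and DESeq2 called none of them. Irf9, part of the complex that answers type I interferon, had 0.39 (SE 0.25) in EnPGC-1 against DMSO.

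Of 16 genes of activated T cells that AP-1, BATF or IRF4 are known to bind or induce, 14 were tested and 13 lay below 0 in EnPGC-1 against DMSO, with a median of -0.86, and 7 were lower at an unadjusted p under 0.05. This list was chosen with earlier results of these data known, so its counts are a description and no independent support. In SGC-CBP30 against DMSO 13 lay below 0 (median -0.97) and 5 were lower at that p, in EnPGC-1 against Ctrl PIP 10 (median -0.64) and 3, and in Ctrl PIP against DMSO 12 (median -0.42) and 0. In EnPGC-1 against SGC-CBP30, 9 of 14 lay above 0 and 5 below (median 0.13), where 47.1% of all genes lay below 0. Gzmb was higher there at that p (1.06, SE 0.40). The shares of all genes lower at that p were 1.81% in EnPGC-1 against DMSO, 2.82% in SGC-CBP30 against DMSO, 2.77% in EnPGC-1 against Ctrl PIP and 0.364% in Ctrl PIP against DMSO. Below 0 were 49.8%, 52.7%, 45.9% and 58.4% of all genes, in the same order of comparisons. Gzmb, which encodes granzyme B, had 79.7 and 83.4 CPM with EnPGC-1, 36.4 and 41.6 CPM with SGC-CBP30, 272 and 182 CPM with Ctrl PIP, and 220 and 490.4 CPM with DMSO. Hk2, the hexokinase of activated T cells, had 12.8 and 18.2 CPM with EnPGC-1, 27.1 and 33.7 CPM with SGC-CBP30, 59.4 and 50.3 CPM with Ctrl PIP, and 24.2 and 73.7 CPM with DMSO. Il2ra, a chain of the high-affinity interleukin-2 receptor, had 64.8 and 49.8 CPM with EnPGC-1, 47.9 and 47.8 CPM with SGC-CBP30, 83.2 and 121 CPM with Ctrl PIP, and 132 and 84.3 CPM with DMSO. Gzmb and Il2ra had the library pattern of Batf3, Irf4 and Zbtb32, with all 4 libraries of EnPGC-1 and SGC-CBP30 lowest. Hk2 did not, since replicate 1 of DMSO lay below both SGC-CBP30 libraries. These 3 genes were named for their small p in EnPGC-1 against DMSO, so a place below DMSO follows in part from that choice. The share of the list and of all genes with this pattern was not counted. edgeR called 0 of the 14 in every comparison, and DESeq2 called 1 in EnPGC-1 against DMSO, 2 in SGC-CBP30 against DMSO and 0 in the others.

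Irf8, Irf4, Batf3 and Zbtb32 are also expressed by B cells or dendritic cells, so markers of those cells were summed in each library. The 10 B cell markers summed to 61.3 and 48.5 CPM with EnPGC-1, 24.5 and 19.7 CPM with SGC-CBP30, 41.6 and 25.6 CPM with Ctrl PIP, and 59.0 and 43.9 CPM with DMSO. The 12 markers of myeloid and dendritic cells summed to 15.1 and 4.47 CPM with EnPGC-1, 4.47 and 4.79 CPM with SGC-CBP30, 7.34 and 7.79 CPM with Ctrl PIP, and 13.6 and 10.49 CPM with DMSO. With EnPGC-1 the B cell sum was as high as with DMSO where Batf3, Irf4 and Zbtb32 were lower, and with SGC-CBP30 it was lower along with them. Xcr1 and Clec9a, which define the dendritic cells that need Batf3, were at or below 0.146 CPM in every library. Itgax, the most abundant of the 12 markers, had the library pattern of Batf3. It was at or below 3.08 CPM with EnPGC-1 and SGC-CBP30 and at or above 3.97 CPM with Ctrl PIP and DMSO. The other markers of that list did not have the pattern. The 5 NK cell markers, some of which activated CD8+ T cells also express, summed to 156 and 209 CPM with EnPGC-1, 116 and 116 CPM with SGC-CBP30, 251 and 218 CPM with Ctrl PIP, and 229 and 278 CPM with DMSO. This sum had the library pattern of Batf3, Irf4 and Zbtb32, with the 4 libraries of EnPGC-1 and SGC-CBP30 below the others. Nkg7 and Eomes made up most of it. Eomes by itself had the pattern too, at or below 48.4 CPM in those 4 libraries and at or above 63.75 CPM in the others. Nkg7 did not: replicate 2 of EnPGC-1 (167 CPM) lay above replicate 2 of Ctrl PIP (142 CPM) and replicate 1 of DMSO (160 CPM). Klre1 had the pattern at a low level, at or below 2.38 CPM with EnPGC-1 and SGC-CBP30 and at or above 4.11 CPM otherwise. Klrb1c had it too, at or below 0.336 CPM and at or above 0.553 CPM. Ncr1, which defines NK cells, did not have it and was at or below 0.534 CPM in every library. The 4 CD4 T cell markers summed to 30.8 and 15.0 CPM with EnPGC-1, 20.03 and 20.0 CPM with SGC-CBP30, 19.3 and 19.5 CPM with Ctrl PIP, and 38.7 and 14.8 CPM with DMSO. Foxp3, the factor of regulatory T cells, was at 13.8 CPM in replicate 1 of EnPGC-1 and 9.46 CPM in replicate 1 of DMSO, the libraries in which Fos and Jun were highest, and at or below 3.55 CPM in the other 6. The part of these cells in the levels was not tested, and fewer cells of a type and less RNA per cell cannot be told apart in these libraries.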

How the data were processed

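RNA was extracted with a column kit and made into strand-marked poly(A) libraries (TruSeq Stranded mRNA), per the labels' protocols. The authors deposited whole-number counts per gene under Entrez IDs, 1 column per library. Per the submitters' processing notes, the tools were HISAT2, StringTie and DESeq2, with mm10 as the build. How reads were counted, the strand setting and filters are not stated in the sources used here. A deposited table of regularized log2 values gave the gene symbols only. It lists 16442 genes, and its values were not used, since each header name stands 1 column left of its values. There were 0 columns of other samples.

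Counts were tested with edgeR 4.0.16 in R 4.3.3 (glmQLFit with robust estimation, glmQLFTest, TMM, filterByExpr by group, group means, 4 residual degrees of freedom), two-sided, at an adjusted p of 0.05. The scripts were checked on simulated data, whose spread between libraries was smaller than the real one. The common coefficient of variation was 0.415. CPM used TMM-scaled library sizes, with a prior count of 2 for log2 CPM. Length and GC content describe each gene's longest transcript in GENCODE mouse release M21 (GRCm38), known for 92.1% of genes tested. Positions and promoters came from RefSeq on GRCm38.p6. Alternatives were DESeq2 size factors, DESeq2 1.42.0, no filter, a replicate block, only the 4 libraries compared, offsets from trends on length and GC content (mgcv 1.9.3), each library left out, and replicate 1 or replicate 2 of both DMSO and EnPGC-1 left out. A block in which the Ctrl PIP numbers were exchanged was added after seeing the data.

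The factors and lists were chosen with earlier results of these data known. All 10 factors are named. Of each list, the 3 genes with the smallest unadjusted p in EnPGC-1 against DMSO are named, and for each factor the 3 genes with the highest Pearson r of log2 CPM. Some results under this rule are not reported here.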

Additional observations from a re-analysis of the deposited data

How the results depend on the processing

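In direction only, the lower values of Batf3, Irf4 and Zbtb32 in EnPGC-1 against DMSO, SGC-CBP30 against DMSO and EnPGC-1 against Ctrl PIP kept their direction under all 16 alternatives named in the methods, the exchanged block aside. Their size moved, from -3.36 to -2.12, -3.40 to -2.88 and -3.45 to -2.21 for Batf3, -1.52 to -0.74, -1.15 to -0.40 and -1.39 to -0.73 for Irf4, and -2.23 to -1.16, -2.39 to -1.57 and -2.11 to -1.09 for Zbtb32. Calls changed too. edgeR called 0 of the 10 factors in each comparison with DESeq2 size factors, without a filter, with the replicate block, in the 4 libraries alone, with length and GC offsets and without any single library. DESeq2 called 1 in EnPGC-1 against DMSO, 2 in SGC-CBP30 against DMSO and 1 in EnPGC-1 against Ctrl PIP. With libraries left out, calls ranged from 0 to 3 in EnPGC-1 against DMSO, 0 to 9 in SGC-CBP30 against DMSO, 0 to 2 in Ctrl PIP against DMSO, 0 to 9 in EnPGC-1 against Ctrl PIP and 0 to 3 in EnPGC-1 against SGC-CBP30. Calls of the 9 ran in both directions, with Jun higher in SGC-CBP30 against DMSO and Jun and Fos higher in EnPGC-1 against Ctrl PIP. The fits with these highest counts called 6.44%, 37.1%, 13.6%, 29.8% and 5.07% of all genes in the 5 comparisons as listed. All calls above 0 came from leaving out replicate 1 (the first 2 comparisons) or replicate 2 (the others) of both DMSO and EnPGC-1, fits that take the spread from SGC-CBP30 and Ctrl PIP alone and assume that the lone libraries vary like them.

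The labels do not say that a replicate number pairs libraries. Deviations of same-numbered libraries correlated at 0.666 between EnPGC-1 and DMSO and at -0.226 and -0.252 between Ctrl PIP and these groups. With the replicate block edgeR called 0 of the 10, and 0 with the numbers of Ctrl PIP exchanged. Under the block, 3 values changed sign: Jun in SGC-CBP30 against DMSO (0.02), and Batf (0.008) and Irf8 (0.05) in Ctrl PIP against DMSO. Fosl2 in SGC-CBP30 against DMSO was -0.05 with length and GC offsets. Batf in EnPGC-1 against SGC-CBP30 (-0.004) was 0.007 with DESeq2 size factors, 0.006 with DESeq2, 0.0007 without a filter and 0.004 in the 4 libraries alone.

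The other changes of sign came from leaving out libraries, and the ranges of the log2 fold change were as follows. In EnPGC-1 against DMSO it ranged from -1.10 to 0.07 for Batf, -1.50 to 0.15 for Irf8, -1.09 to 0.57 for Jun, -1.26 to 0.10 for Fos and -0.37 to 0.22 for Fosl2. In SGC-CBP30 against DMSO it ranged from -1.19 to 0.31 for Irf8, -0.71 to 0.83 for Jun and -0.98 to 0.04 for Jund. In Ctrl PIP against DMSO it ranged from -0.32 to 0.30 for Batf, -0.19 to 0.34 for Batf3, -0.46 to 0.29 for Irf4, -0.71 to 0.80 for Irf8, -1.25 to 0.29 for Jun, -0.58 to 0.28 for Junb, -0.55 to 0.47 for Jund, -0.28 to 0.06 for Fosl2 and -0.48 to 0.35 for Zbtb32. In EnPGC-1 against Ctrl PIP it ranged from -1.05 to 0.11 for Batf, -0.42 to 0.75 for Jun and -0.24 to 0.33 for Fosl2. In EnPGC-1 against SGC-CBP30 it ranged from -0.70 to 0.46 for Batf, -0.20 to 1.04 for Batf3, -0.87 to 0.32 for Irf8, -0.96 to 0.21 for Jun, -0.22 to 0.57 for Junb, -0.65 to 0.33 for Jund and -0.19 to 0.83 for Zbtb32. The cause of these changes was not tested. With 2 libraries a group, the spread between replicates limits every comparison, and depth limits Batf3, which had 11 to 34 counts with EnPGC-1.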
